A study of Mus musculus with 8 samples.

Results

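A list of 7 miRNA stems known as made without Drosha or without its partner DGCR8 was looked up on miRNA arrays of mouse blood stem and progenitor cells, and 5 of the 7 were found. The members were matched by name: mmu-mir-320, mmu-mir-484, mmu-mir-344, mmu-mir-668, mmu-mir-702, mmu-mir-877 and mmu-mir-1224. The list itself was drawn up with earlier results of these data known. Each of the first 5 has 1 mature probe, among 433 mature names read by 521 probes. miR-320, miR-344, miR-668 and miR-702 also have 1 precursor probe each, among 274 precursor names read by 300 probes. miR-877 and miR-1224 were not analysed here, and for miR-484 the mature form alone was measured.

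In the usual route to a miRNA, Drosha and DGCR8 cut a hairpin out of a long nuclear transcript, and Dicer then cuts the hairpin into the mature strands. A few hairpins skip the nuclear cut. Some, such as those of miR-320 and miR-484, are transcribed directly as short capped hairpins, and others, the mirtrons, are released from an intron by splicing. Mirtrons of mouse include miR-702, miR-877 and miR-1224. miR-668 was kept as the list gives it. Tsc1 restrains mTORC1, a kinase complex that drives cell growth when nutrients are plentiful, and the series deals with mTORC1 and how miRNAs are made. The comparison asks whether miRNAs that bypass Drosha or DGCR8 had a change of their own when Tsc1 was deleted.

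The cells were Lin-cKit+Sca1+ (LSK) bone marrow cells, a sorted fraction rich in blood stem cells and early progenitors, from 10-week-old C57BL/6 females. The control group (Ctrl) was Tsc1f/f without Mx1-Cre, and the deleted group (cKO) was Tsc1f/f with Mx1-Cre, with 4 littermate mice in each group and 1 array per mouse. Mx1-Cre is switched on by interferon and acts in many tissues besides blood. Both groups received 7 injections of 400 µg pIpC, an inducer of interferon, so the controls carry that exposure too, and marrow was collected 10 days after the final one. Conditional Raptor alleles also appear in the series text, whereas the genotype given for each sample is of Tsc1, which was used here. Tsc1 mRNA was not analysed here, so the deletion was not checked.

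Arrays 1 and 2 of each group had a higher background (14.98 to 15.02, log2 intensity) than arrays 3 and 4 (14.56 to 14.63), so values per array are given as log2 units above the array's own background, the commonest log2 level over both tables. Bright stands for a mean over 1 log2 unit above that level. The array of cKO 4 stood apart, with 91 bright mature probes against 117 to 137 on the other 7 arrays. Fold changes of members that rest most on it are also given without it. Marker values and the shares of all names lower in cKO are given with it. Of the marker miRNAs, the myeloid miR-223 lay 5.03 log2 units above background in Ctrl and 4.78 in cKO. Of 7 general haematopoietic names (miR-142, miR-155 and miR-181a) 4 were bright in Ctrl and 4 had a fold change below 0 (median of the 7 -0.30). Among these, miR-142-5p lay 2.16 log2 units above background in Ctrl and 1.88 in cKO, the 2 names of miR-181a-5p 2.34 and 2.69 in Ctrl and 2.00 and 2.09 in cKO, and miR-155 2.06 and 2.09. Of 10 stem and progenitor names of 5 miRNAs (miR-125b, miR-99a, miR-126, miR-10a and miR-196b) 4 were bright in Ctrl. All 10 had a fold change below 0 (median -0.90), against 64.9% of all 433 mature names, and 0 passed limma's adjusted p under 0.05. Names of one miRNA are not separate observations, and in cKO the 10 read from -0.54 to 1.27 log2 units against background. The lymphoid miR-150 lay 1.49 log2 units above background in Ctrl and 0.66 in cKO. Of 9 names of the muscle miRNAs miR-1, miR-133a and miR-206, 0 were bright in Ctrl, and of 13 names of neuron miRNAs 1 was, miR-128a. Of 3 erythroid names 0 were bright in Ctrl, and their median fold change was 0.03: miR-486 read -0.19 against background in Ctrl and 1.18 in cKO, miR-451 -0.05 and -0.31, and miR-144 0.0032 and 0.06. The part of other cell types in the results below was not tested, and in a sorted population fewer cells of a type cannot be told apart from less RNA per cell.

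The sequences below are those of the measured members that the RefSeq table (GRCm38.p6) holds. Probe sequences were not analysed here, so what each probe can tell apart was not tested. Of the 7 stems, 6 had an entry. The array names do not say which arm a mature probe reads, so both arms are given, 5′ to 3′, with the seed (bases 2 to 8), which selects targets, in capitals.
miR-484: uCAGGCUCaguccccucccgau
miR-344-5p: aGUCAGGCuccuggcuagauuccagg
miR-344-3p: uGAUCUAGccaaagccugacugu
miR-668-5p: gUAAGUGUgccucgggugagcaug
miR-668-3p: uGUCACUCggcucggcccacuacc
miR-702-5p: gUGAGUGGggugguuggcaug
miR-702-3p: uGCCCACCcuuuaccccgcucc
No seed is shared between these 4 miRNAs. The seeds of miR-484, miR-668-3p and miR-702-3p are shared with 0 other mature miRNAs in the table. The seed of miR-344-5p is shared with 5 others and that of miR-344-3p with 1, all named as miR-344 relatives, while miR-668-5p shares its seed with miR-467h and miR-702-5p with miR-3102-5p. None of these had a mature probe under its own name.

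miR-668 and miR-702, the members with the lowest fold changes of a mature and of a precursor probe, are shown as whole hairpins, with both mature arms in capitals.
Mir668 hairpin: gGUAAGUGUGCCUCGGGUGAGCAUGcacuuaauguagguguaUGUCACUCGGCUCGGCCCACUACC
Mir702 hairpin: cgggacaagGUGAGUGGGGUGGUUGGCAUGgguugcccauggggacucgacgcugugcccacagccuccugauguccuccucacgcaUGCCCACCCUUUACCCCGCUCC
The Mir668 hairpin lies at chr12:109734732-109734797 on the plus strand of GRCm38.p6, in the imprinted Dlk1-Dio3 region, outside the span of any annotated gene other than its own. The Mir702 hairpin lies at chr5:136991433-136991541 on the plus strand, within the span of Plod3, which encodes a collagen-modifying enzyme. Mir484 lies at chr16:14159626-14159692 on the plus strand, with no other gene spanning it. miR-344 has 2 copies on the minus strand, at chr7:61877770-61877864 within A230057D06Rik and at chr7:61940027-61940106 within Gm3257, and both give the same mature arms.

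Against a median of 79 bases over 1005 mouse hairpins, Mir668 had 66, Mir484 67 and Mir702 109. Mir702 was rich in G and C (65.1%, more than 92.5% of hairpins, whose median was 51.7%), and Mir668 (56.1%) and Mir484 (58.2%) were nearer to that median. Predicted folding energy, from RNAfold, was -24.6 kcal/mol for Mir484, -33.5 for Mir668 and -56.8 for the longer copy of Mir344, against a median of -32 kcal/mol. miR-668-5p and miR-702-5p begin with GUAAGU and GUGAGU, letters found at the start of introns. Of all 1679 mature miRNAs listed by RefSeq, 6 (0.36%) begin with either motif, read on the RNA strand alone. No sequence can begin with both motifs. Among the members with a RefSeq hairpin, which leaves out miR-320, those of miR-877 and miR-1224 alone begin with GU and end with AG as a whole intron would, as do 2.99% of all hairpins.

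**Figure D1:**
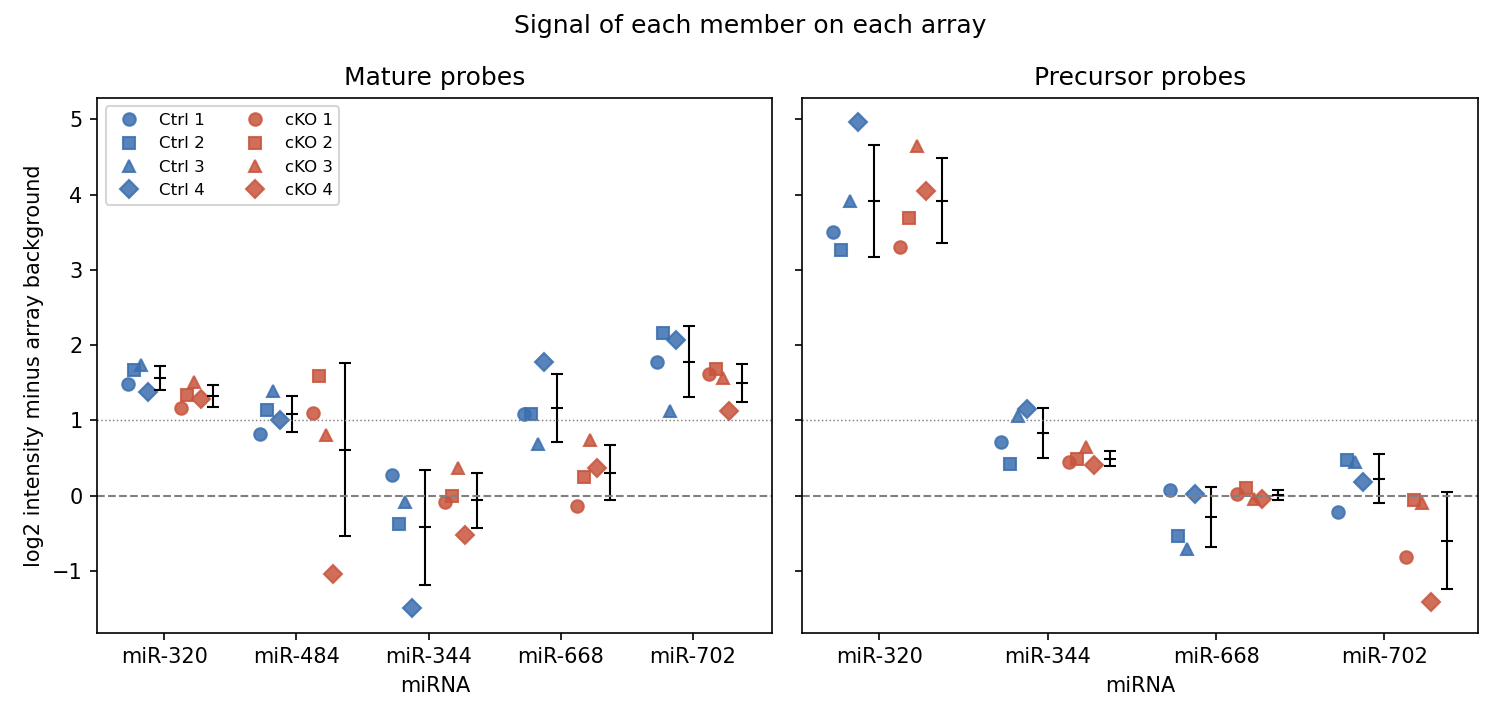
Signal of each member on each of the 8 arrays, as log2 intensity minus the background of the array (dashed line at 0, dotted line at 1), for mature probes (left) and precursor probes (right). Points are mice, with a symbol per replicate number, and bars are the mean and SD of 4 mice. Mature miR-668 is lower in cKO with 1 overlapping pair of mice, mature miR-484 is low in cKO 4 alone, and the miR-320 precursor lies 3.26 to 4.96 above background in both groups.

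Mature miR-668 (mmu-miR-668-A on the array) had the lowest mature fold change of the members. It lay 1.09, 1.09, 0.69 and 1.78 log2 units above background in Ctrl 1 to 4, and at -0.14, 0.25, 0.74 and 0.37 in cKO 1 to 4. The groups overlapped through 1 pair, since cKO 3 lay above Ctrl 3, and the cKO values lay near background. Among all 433 mature names, the groups did not overlap in 0.924%. The mean log2 intensity was 15.98 ± 0.47 in Ctrl and 15.10 ± 0.26 in cKO (SD, n = 4 each). The log2 fold change was -0.88 (SE 0.27, 95% interval -1.47 to -0.29), 1.84-fold lower, with unadjusted p = 0.00785 and adjusted p = 0.605 by limma, so it did not pass the threshold of 0.05. It was -1.04 in samples 1 and 2, -0.71 in samples 3 and 4 and -0.82 without cKO 4. Since the cKO mice lay only 0.31 log2 units above background on average, the size depends on how background is treated. With the background subtracted the value was -2.44. There cKO 1, which lay below background, was set to a floor of 1/16 of the background.

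The miR-668 precursor probe read background. Relative to background it read 0.08, -0.53, -0.71 and 0.03 log2 units in Ctrl, and 0.03, 0.10, -0.05 and -0.05 in cKO. Ctrl 2 and Ctrl 3 were the low arrays, and the groups overlapped. Its log2 fold change was 0.27 (SE 0.27, adjusted p = 0.999 by limma), between signals that were not above background in either group, and it was 0.06 without Ctrl 3 and 0.46 without Ctrl 1.

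The mature signal of miR-668 minus its precursor signal was taken against a precursor probe that was not above background. On the log2 scale this difference was 1.00, 1.63, 1.40 and 1.75 in Ctrl, and -0.16, 0.15, 0.79 and 0.41 in cKO. Every cKO mouse was below every Ctrl mouse, unlike in the mature signal alone, where Ctrl 3 (0.69 above background) lay below cKO 3 (0.74). The difference of Ctrl 3 rests on a precursor reading of -0.71, below background, and that of Ctrl 2 on one of -0.53. The change in the difference was -1.15 (SE 0.25, 95% interval -1.72 to -0.57). It had the lowest p of the 263 miRNAs with both forms (unadjusted p = 0.00188 by limma), and the adjusted p of 0.327 did not pass. Of these 263 miRNAs, 13 (4.94%) had groups that did not overlap, and 17 (6.46%) had an unadjusted p under 0.05, 14 of them (5.32%) lower in cKO. Samples 1 and 2 alone gave -1.32, samples 3 and 4 gave -0.97, and leaving out cKO 4 gave -1.19.

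Beside probes of similar intensity, meaning names of the same table with a mean log2 intensity within 0.5 of the member's, miR-668 lay near the low end. Of 62 such mature names 4 had a lower fold change (miR-125b-1 at -1.22, miR-126*-5p at -1.04, miR-29a at -0.90 and miR-123 at -0.89, looked up after the values were seen), and the median of the 62 was -0.30, with 47 of them lower in cKO. Neighbours of miR-668 in the Dlk1-Dio3 region, which are cut from long transcripts in the usual way, had 17 mature names on the array. Of these, 14 were lower in cKO, with a median of -0.10, 0 passed adjusted p under 0.05, and 0 had a fold change below that of miR-668. The lowest among them was miR-487b at -0.84 (SE 0.31, adjusted p = 0.690 by limma), and miR-543 had -0.57 (SE 0.47) and miR-377 -0.43 (SE 0.23). None of the 17 names was bright in Ctrl, where the highest lay 0.75 log2 units above background. Of the 11 precursors of these neighbours 5 were lower, with a median of 0.0053, and miR-539 had the lowest at -1.42 (SE 0.66, adjusted p = 0.999 by limma).

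miR-320 (mmu-mir-320), a directly transcribed hairpin, was measured well above background in its precursor form, and its values in the groups overlapped in both forms. The precursor lay 3.51, 3.26, 3.92 and 4.96 log2 units above background in Ctrl 1 to 4, and 3.30, 3.69, 4.64 and 4.04 in cKO 1 to 4. In both groups arrays 1 and 2 were the lower ones, and Ctrl 4 was the highest of all. The mean log2 intensity was 18.73 ± 0.59 in Ctrl and 18.71 ± 0.41 in cKO (SD, n = 4 each). Its log2 fold change was -0.02 (SE 0.31, adjusted p = 0.999 by limma), with a 95% interval of -0.69 to 0.66. It was 0.10 in samples 1 and 2 and -0.13 in samples 3 and 4. Its sign is not settled, as it was 0.010 after centring of the arrays and 0.14 after quantile normalization. Only 2 other precursor names had a similar intensity, miR-181a-2 at -0.59 and miR-706 at -0.58, looked up after the values were seen.

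Mature miR-320 had the smallest spread above background of the mature members (SD 0.16 in Ctrl and 0.14 in cKO). It lay 1.49, 1.67, 1.73 and 1.38 log2 units above background in Ctrl, and 1.17, 1.33, 1.51 and 1.29 in cKO. The groups overlapped through Ctrl 1 and Ctrl 4, which lay below cKO 3. The log2 fold change was -0.27 (SE 0.21, 95% interval -0.74 to 0.21, adjusted p = 1.00 by limma). It was -0.34 in samples 1 and 2 and -0.20 in samples 3 and 4. Leaving out Ctrl 2 gave -0.17, and quantile normalization gave -0.04. Of 34 mature names of similar intensity, 14 had a lower fold change and 26 were lower in cKO, with a median of -0.18. The change of mature minus precursor signal was -0.25 (SE 0.44, adjusted p = 0.950 by limma), with -0.66 without Ctrl 4 and 0.00056 without Ctrl 2.

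miR-484 (mmu-mir-484), also directly transcribed, was low on 1 array. It lay 0.82, 1.14, 1.39 and 1.01 log2 units above background in Ctrl, and 1.10, 1.59, 0.81 and -1.04 in cKO. Of the other cKO mice, cKO 1 lay within the range of Ctrl, cKO 2 above it and cKO 3 just under it, and cKO 4 alone lay below background. The mean log2 intensity was 15.91 ± 0.22 in Ctrl and 15.41 ± 1.35 in cKO (SD, n = 4 each). With all mice the log2 fold change was -0.50 (SE 0.55, 95% interval -1.73 to 0.73, adjusted p = 1.00 by limma). It turned to 0.13 without cKO 4, and was 0.35 in samples 1 and 2 and -1.35 in samples 3 and 4. Of 60 mature names of similar intensity, 16 had a lower fold change and 46 were lower in cKO, with a median of -0.30.

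miR-344 (mmu-mir-344), from a cluster of related hairpins on chromosome 7, was not above background in its mature form. Against background, the mature probe read 0.28, -0.38, -0.09 and -1.49 log2 units in Ctrl, and -0.08, -0.0032, 0.37 and -0.52 in cKO. Ctrl 4 and cKO 4 were the low arrays, and the log2 fold change of 0.34 (SE 0.43, adjusted p = 1.00 by limma) turned to -0.082 without Ctrl 4. The precursor probe lay somewhat higher, at 0.72, 0.42, 1.06 and 1.15 above background in Ctrl and 0.45, 0.48, 0.64 and 0.41 in cKO. Its groups overlapped through Ctrl 2, and its log2 fold change was -0.36 (SE 0.19, 95% interval -0.79 to 0.06, unadjusted p = 0.0862, adjusted p = 0.999 by limma). It was -0.11 in samples 1 and 2, -0.61 in samples 3 and 4 and -0.26 without cKO 4. Of 22 precursor names of similar intensity, 7 had a lower fold change, with a median of -0.12. The change of mature minus precursor signal was 0.70 (SE 0.45, adjusted p = 0.706 by limma), and 0.24 without Ctrl 4.

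miR-702 (mmu-miR-702-A), the measured mirtron, was bright in its mature form, and its precursor lay around background. The mature probe lay 1.77, 2.16, 1.13 and 2.07 log2 units above background in Ctrl, and 1.62, 1.68, 1.56 and 1.13 in cKO. The lowest Ctrl mouse, Ctrl 3, and the lowest cKO mouse, cKO 4, had nearly the same value, and the groups overlapped. The log2 fold change was -0.31 (SE 0.34, 95% interval -1.06 to 0.44, adjusted p = 1.00 by limma), and -0.11 without cKO 4 and -0.59 without Ctrl 3. Of 33 mature names of similar intensity, 9 had a lower fold change and 24 were lower in cKO, with a median of -0.17.

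The miR-702 precursor probe had the second-lowest p of the 274 precursor names, at signals near background. Against background it read -0.22, 0.48, 0.45 and 0.19 log2 units in Ctrl, and -0.81, -0.06, -0.09 and -1.42 in cKO. The groups overlapped through Ctrl 1, which lay below cKO 2 and cKO 3, and cKO 4 was the lowest. The log2 fold change was -0.85 (SE 0.35, 95% interval -1.60 to -0.09, unadjusted p = 0.0318, adjusted p = 0.999 by limma), and -0.49 without cKO 4 (unadjusted p = 0.0814). In samples 1 and 2 it was -0.58 and in samples 3 and 4 -1.11. With the background subtracted, and a floor of 1/16 of the background, it was -1.62. Every cKO reading and that of Ctrl 1 lay below background and was set to that floor. The size of -1.62 thus depends on the floor chosen. Of 221 precursor names of similar intensity, 2 had a lower fold change (miR-539 and, looked up after the values were seen, miR-499 at -1.01), with a median of -0.02. The change of mature minus precursor signal was 0.54 (SE 0.35, adjusted p = 0.706 by limma), and 0.24 without Ctrl 3.

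**Figure D2:**
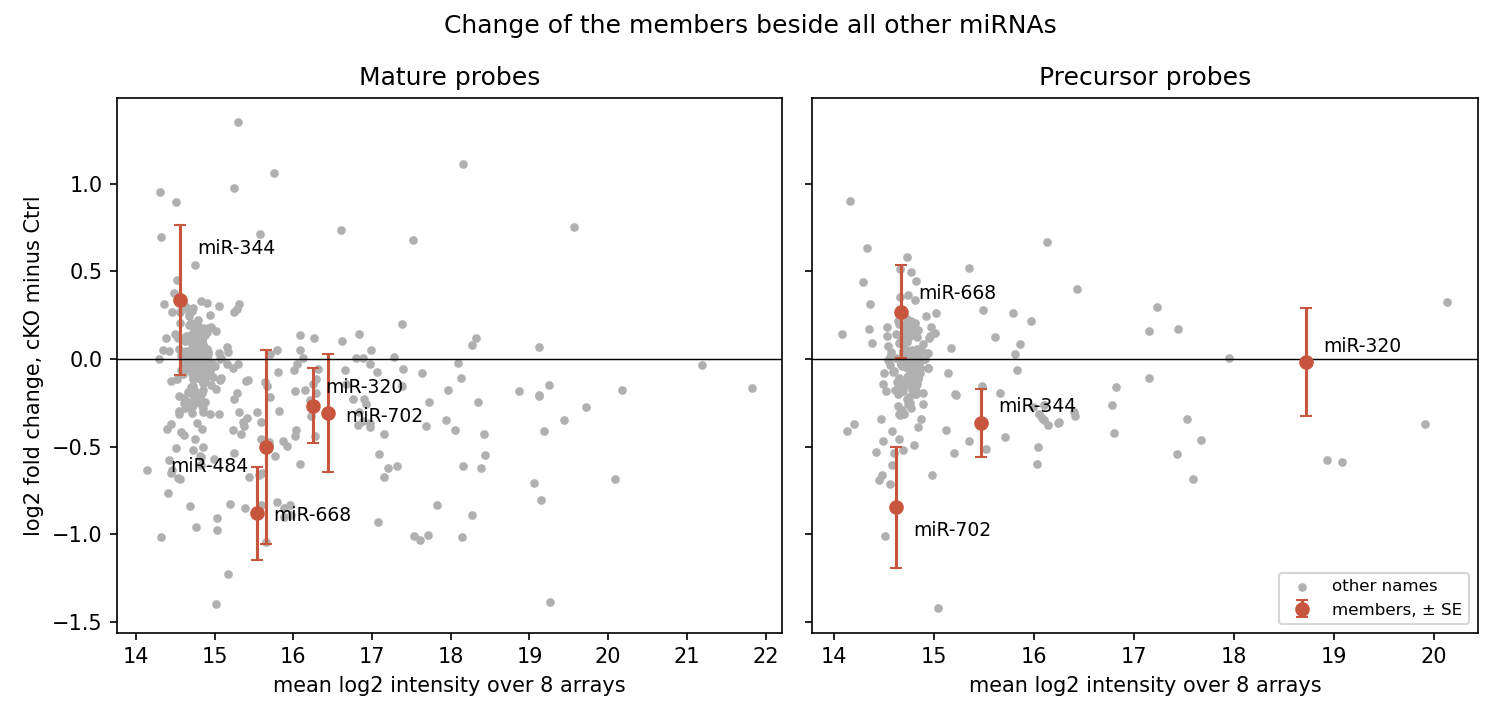
Log2 fold change (cKO minus Ctrl) against mean log2 intensity over the 8 arrays for the mature names (left) and precursor names (right). Grey points are all other names, red points with bars are the members with their SE. Mature miR-668 at -0.88 and the miR-702 precursor at -0.85 lie near the lower edge of the probes at their intensity, and the miR-320 precursor lies at -0.02.

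Of the 5 mature members 4 were lower in cKO, with a median log2 fold change of -0.31. A share of 64.9% of all 433 mature names was lower, with a median of -0.04. Of the 94 bright mature names 76 were lower, with a median of -0.24. Set against the median of the names at its own intensity, the middle member differed by -0.14. Of the 4 precursor members 3 were lower (median -0.19), against 59.1% of all 274 precursor names (median -0.03). With 1 mouse left out, 2 or 3 of the 4 were lower and their median ran from -0.31 without Ctrl 2 to -0.02 without Ctrl 4. For mature minus precursor signal 2 of the 4 members were lower (median 0.14), against 52.9% of 263 miRNAs (median -0.02). With 1 mouse left out, the median of the mature members ran from -0.46 without Ctrl 3 to -0.11 without cKO 4, where 3 of 5 were lower. In the 6 samples whose labels name scanner 4000B, which leave out cKO 3 and cKO 4, it was 0.05, with 2 of 5 lower. There cKO 1 and cKO 2 (background 14.98 and 15.02) were set against all Ctrl arrays, including Ctrl 3 and Ctrl 4 (14.62 and 14.63). The values were not taken relative to background. Within samples 1 and 2 of both groups, mature miR-702 was -0.33, miR-344 -0.0034 and miR-484 0.35.

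No member passed limma's adjusted p under 0.05 in any form, and neither did any other miRNA (0% of 433 mature names, 0% of 274 precursor names and 0% of 263 differences). At unadjusted p under 0.05, 1 of the 5 mature members (miR-668) was called, against 4.39% of all mature names (19 names) and 3.93% called in the direction lower in cKO. Of the 4 precursor members 1 (miR-702) was called, against 2.55% of all precursor names (7 names), each of them lower in cKO. The groups overlapped for all 5 mature and all 4 precursor members, and did not overlap for 1.09% of all precursor names.

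**Figure D3:**
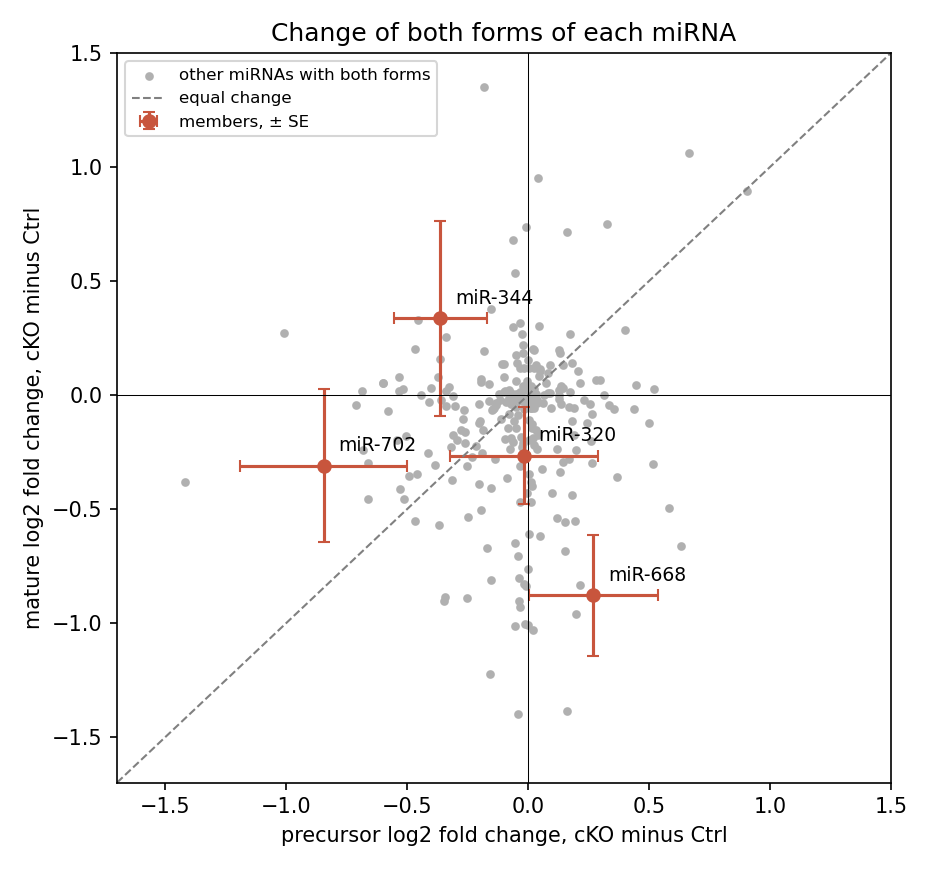
Mature against precursor log2 fold change (cKO minus Ctrl) for the 263 miRNAs with both forms. Grey points are other miRNAs, red points with bars are the 4 members with their SE, and the dashed line marks an equal change of both forms. miR-668 lies below the line (-0.88 mature, 0.27 precursor) and miR-702 (-0.31 mature, -0.85 precursor) and miR-344 (0.34 mature, -0.36 precursor) lie above it.

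Of miRNAs made by other special routes, miR-451, whose hairpin is cut by Ago2 in place of Dicer after the usual Drosha cut, had the one measured value. Its mature log2 fold change was -0.28 (SE 0.25) and that of its precursor 0.17, both at background (-0.05 and -0.06 log2 units from it in Ctrl). miR-664, miR-1291 and miR-1839, from small nucleolar RNAs, were not analysed here.

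The 2 bright mature members differed in which other miRNAs followed a similar course over the 8 arrays. After subtraction of the array median, mature miR-320 was most alike to miR-150, a regulator of lymphoid maturation (Pearson's r = 0.885), followed by miR-181b-2 (0.839) and miR-130a (0.812), among 92 bright mature names. These 3 had log2 fold changes of -0.85, -0.71 and -0.93. miR-702 was most alike to let-7g (0.781), miR-346 (0.755) and miR-292-5p (0.678), with fold changes of -0.49, -0.03 and -0.44. The 8 points of each correlation share their arrays and their group, and the names were picked as the highest of many, so the values are a description.

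**Figure D4:**
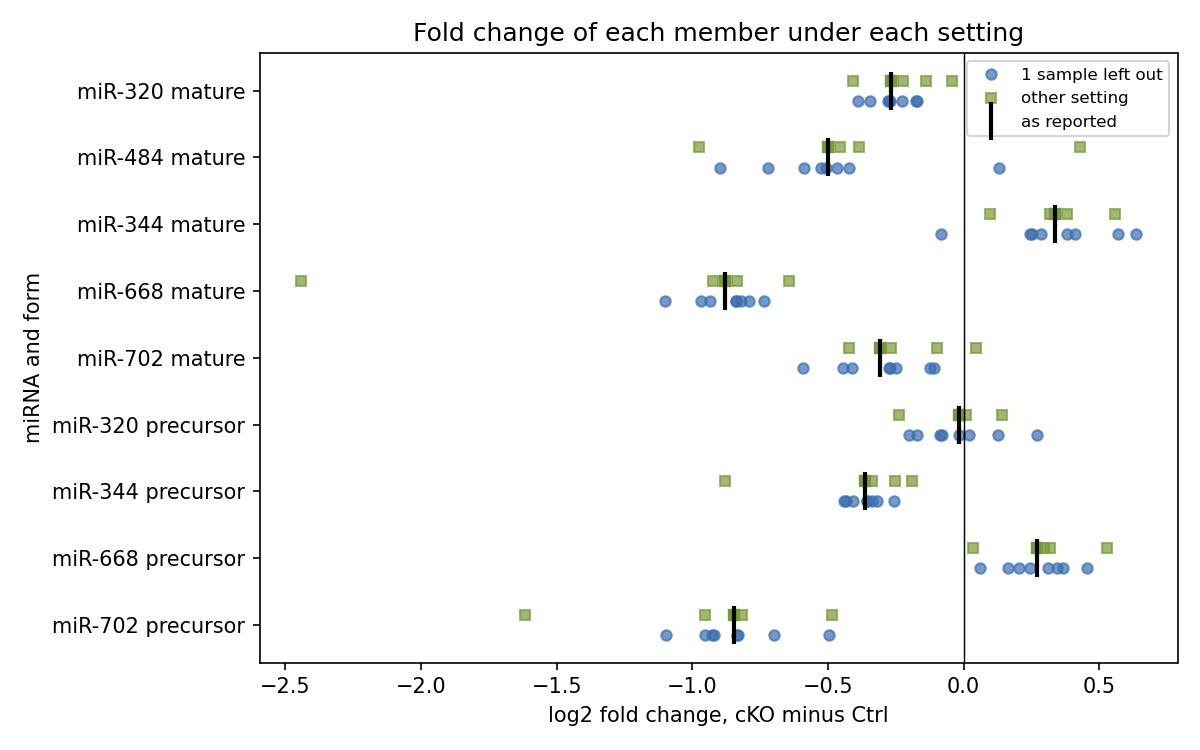
Log2 fold change (cKO minus Ctrl) of each member and form as reported (black bar), with 1 sample left out (blue) and under the other settings (green). Every value for mature miR-668 lies below 0, between -2.44 (background subtracted, with a floor) and -0.64. Values for mature miR-484, mature miR-344, mature miR-702 and the miR-320 precursor fall on both sides of 0.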

How the data were processed

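The deposited values are intensities on a linear scale, from 1-colour miRNA arrays, in 1 table of mature and 1 of precursor probes. Per the labels' protocols, the authors reverse transcribed 5 µg of total RNA using a biotin-tagged random octamer, stained it with streptavidin-Alexa647 and read the arrays on an Axon instrument. Per the file headers, a template comment, the deposited intensity is normalized. Its method and any filter or background step are not stated in the sources. The series matrix values, an alternative input, equalled the mature table in every cell. Scanner labels are 4000B for 6 samples, with other numbers for cKO 3 and cKO 4.

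Values were transformed to log2(value + 1), probes of one name were averaged, and limma 3.58.1 (R 4.3.3; lmFit, eBayes, no block, Benjamini-Hochberg over all names of a table, threshold 0.05) compared cKO with Ctrl. Mature minus precursor log2 values were fitted in the same way for 263 miRNAs matched by name. Each array's background was its commonest log2 value (density mode, bandwidth 0.1) across the mature and precursor tables; this level differed by at most 0.03 log2 units between the tables. The fit was tested on simulated data with independent noise and changes larger than those reported for the members. That test does not show how well changes of the members' size would be found. Precision is limited by having 8 arrays: the median SE was 0.26 for mature and 0.23 for precursor names. Folding energies came from ViennaRNA 2.7.2, figures from Python 3.11.15 and matplotlib 3.10.9.

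The members, lists and tests were chosen with earlier results of these data known. Named were every member, the listed Dlk1-Dio3 neighbours of miR-668 and miRNAs of other routes, and the 3 bright miRNAs most alike to each bright mature member. Alternatives covered the pseudocount, scaling, background, dim probes, single probes, blocks, scanner, variance trend, width of similar intensity and omission of each sample.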

Additional observations from a re-analysis of the deposited data

Results flagged for a closer look

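In 1 of the 26 groups of 4 values examined, a value stood far from the others by Dixon's test, and chance gives about 1 in 20. Mature miR-344 in cKO 4 had a log2 intensity of 14.04, against 14.89 to 15.02 in the other cKO mice. These values are not relative to the array's background. Relative to it, cKO 4 read -0.52 and cKO 1 to 3 read -0.08, -0.0032 and 0.37, a wider spread on which Dixon's test was not run. The probe was not above background, and the array of cKO 4 had the fewest bright probes.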

How the results depend on the processing

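All 55 recounts of miRNAs past adjusted p under 0.05 gave 0, over all 3 comparisons (lowest adjusted p = 0.0545). Of 225 member values, none passed the threshold and 214 kept their sign. In the samples of scanner 4000B alone, miR-484 mature was 0.43, miR-702 mature 0.047 and the miR-320 difference between forms 0.10; 2 of 5 mature members and 1 of 4 differences were lower, and the precursor members' median distance from probes of similar intensity, 0.02 as reported, was -0.37. The miR-320 precursor was 0.010 after median centring and 0.14 after quantile normalization. With the background subtracted and the floor applied, the precursor median was -0.45, and -0.26 beside similar probes. Among bright names alone, miR-320 was the one precursor member (0.57 beside similar probes) and the one difference (-0.25, and -0.54 beside similar probes). With 1 sample left out, values ranged as follows: miR-320 precursor -0.20 to 0.27, miR-320 difference -0.66 to 0.00056, miR-344 mature -0.082 to 0.64, miR-484 mature -0.90 to 0.13, differences lower 1 to 2, their median -0.21 to 0.29, and beside similar probes -0.18 to 0.37; both of these medians were below 0 without Ctrl 4 alone. The setting of scanner 4000B alone set cKO arrays of higher background against Ctrl arrays of both background levels, without values relative to background. The cause of these shifts was not tested. Samples of one number in both groups correlated at 0.09 to 0.35 in mature and -0.03 to 0.14 in precursor deviations. The best match of a Ctrl sample was the cKO sample of its number in 3 of 4 cases for mature and 2 of 4 for precursor names. The labels state no pairing, so the main fit used none. Anything that samples of one number share was thus not removed and counts as spread in its SEs. Without a block, 19 mature names had an unadjusted p under 0.05 by limma. With replicate number as a block, 0 mature names passed (48 at unadjusted p under 0.05), and miR-668 had adjusted p = 0.372; precursors gave 0 and 15, differences 0 and 29. With the brighter and dimmer arrays as a block, limma gave 0 and 38 mature names. Signal over background limits mature miR-344 and the precursors of miR-668 and miR-702.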
